A study of Mus musculus with 20 samples.

Results

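The skeletal muscle acetylcholine receptor is built from the products of 5 genes, Chrna1 (alpha), Chrnb1 (beta), Chrnd (delta), Chrng (gamma) and Chrne (epsilon), and their RNA was measured in cultured mouse myotubes. The genes were chosen by their subunit names, whatever their values, though with earlier results of these data known. All 5 were found among the 26722 genes of the count table and passed the filter on low counts. C2C12 is an established line of mouse myoblasts, whose fusion yields multinucleated muscle fibres in culture (myotubes), and it was kept in horse serum for 5 days to differentiate before a treatment of 16 h. Total RNA was sequenced after removal of ribosomal RNA, in 4 biological replicates of each of 5 treatments (20 libraries). The control received 7.7 nM b12 hIgG4, the negative control antibody. The bivalent group received 7.7 nM 13-3B5 hIgG4, an antibody labelled as activating MuSK, the receptor tyrosine kinase of the muscle synapse. The agrin group received 0.1 nM neural agrin, the natural MuSK activator, with 7.7 nM b12. The last groups received the same dose of agrin with 7.7 nM of 13-3B5xb12 or of 11-3F6xb12, both labelled as monovalent inhibiting MuSK antibodies. Every group therefore holds an antibody at the same concentration, and no group was left without one. The cultures contain no motor neurons, and all RNA came from whole cultures of the line.

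The receptor is a ligand-gated cation channel with a pair of alpha subunits, which carry the acetylcholine binding sites, and a beta, a delta and a gamma or epsilon subunit. Fetal and denervated muscle makes the gamma form, and innervated adult muscle replaces gamma with epsilon, which shortens the open time and raises the conductance of the channel. At the synapse agrin acts through Lrp4 and MuSK to cluster receptors on the scaffold protein rapsyn, and transcription of the subunit genes is concentrated in the nuclei beneath the nerve ending. Factors of the MyoD family, which bind E-boxes (CANNTG), drive subunit genes in differentiating muscle, and ETS-family factors act through the N-box (TTCCGG) on synaptic genes.

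By the GENCODE annotation (release M21, build GRCm38), Chrna1 (ENSMUSG00000027107) lies on the minus strand of chromosome 2 from 73563215 to 73580338. Chrnd (ENSMUSG00000026251, 87190607 to 87200070) and Chrng (ENSMUSG00000026253, 87204657 to 87212694) are neighbours on the plus strand of chromosome 1, 4586 bases apart. Chrnb1 (ENSMUSG00000041189, 69784036 to 69795943) and Chrne (ENSMUSG00000014609, 70614883 to 70619216) both lie on the minus strand of chromosome 11. Chrne is overlapped on the opposite strand by 4930544D05Rik, which had from 0 to 2 counts in a library (median 0). The union of annotated exons is 4386 bases for Chrna1, 2531 for Chrnb1, 3288 for Chrnd, 4163 for Chrng and 1690 for Chrne.

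Promoter windows from RefSeq (GRCm38.p6) were matched for 4 of the 5 genes, without Chrnd, and the part from 250 to 51 bases before each RefSeq gene start was searched on both strands for CANNTG, for its form CAGCTG and for TTCCGG. The windows of Chrng and Chrne are shown because these genes encode the exchangeable subunits, and that of Chrna1 because this gene had the highest level. Capitals mark the matches, and each sequence reads 5′ to 3′ on the strand of its gene, as chr1:87205561-87205760 (plus) for Chrng, chr11:70619245-70619444 (minus) for Chrne and chr2:73580389-73580588 (minus) for Chrna1. The RefSeq start of Chrng lies inside the GENCODE gene given above, whose outermost transcript begins further upstream, so the Chrng window falls within that span but in none of its annotated exons.
Chrng: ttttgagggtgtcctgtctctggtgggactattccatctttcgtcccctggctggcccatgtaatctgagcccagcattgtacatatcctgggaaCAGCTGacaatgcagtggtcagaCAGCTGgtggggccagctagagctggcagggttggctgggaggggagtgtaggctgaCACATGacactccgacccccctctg
Chrne: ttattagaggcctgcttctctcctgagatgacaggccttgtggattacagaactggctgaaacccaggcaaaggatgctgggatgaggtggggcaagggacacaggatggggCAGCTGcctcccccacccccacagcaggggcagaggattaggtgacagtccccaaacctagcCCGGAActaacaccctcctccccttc
Chrna1: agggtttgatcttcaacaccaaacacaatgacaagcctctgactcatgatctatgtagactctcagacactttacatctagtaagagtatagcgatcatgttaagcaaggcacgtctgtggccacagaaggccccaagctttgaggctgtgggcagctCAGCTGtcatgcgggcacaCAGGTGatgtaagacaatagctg
The Chrng window holds 3 E-boxes, of which 2 read CAGCTG (155 to 150 and 132 to 127 bases before the start) and 1 reads CACATG (75 to 70). The Chrne window holds 1 CAGCTG (138 to 133) and, on the opposite strand, 1 N-box (76 to 71, read here as CCGGAA). The Chrna1 window holds CAGCTG (92 to 87) and CAGGTG (73 to 68). The Chrnb1 window, which overlaps an annotated exon of Fgf11, holds 2 E-boxes, neither of the CAGCTG form. Only the Chrne window among these 4 held the N-box letters. Of 32851 windows of the same 200 bases, 59.0% hold at least 1 CANNTG, 24.3% at least 2, 10.3% at least 1 CAGCTG, 0.813% at least 2 CAGCTG and 8.03% an N-box. A match describes the letters of the window and is neither a binding site nor a cause.

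Total counts ranged from 18424881 to 23343903 per library, and mitochondrial genes took from 27.9% to 39.1% of a library. All 15 listed myotube markers passed the filter, and their summed level was 13897 to 18447 CPM (counts divided by the library total, after scaling by the trimmed mean of M-values, TMM, and given on the usual CPM scale). The 9 measured myoblast and cycling markers summed to 310 to 474 CPM and the 7 measured fibroblast markers to 4232 to 5437 CPM. Of the fibroblast list, Col3a1 alone had a mean of 3635 CPM, and the sum does not show that fibroblasts were present. Of 11 liver genes in the table, 1 was at 0 in every library, and their sum stayed at or under 0.769 CPM except in agrin replicate 3, where it reached 13.9 CPM. That library, agrin with 13-3B5xb12 replicate 1 and control replicate 2 had stood apart in earlier results, so values without them are given where they change a result. Libraries of replicates 3 and 4 stood apart from those of replicates 1 and 2, as 1908 genes differed between them (below). The labels do not say what libraries of one number share, so p-values measure the spread between these samples, which may be partly technical. In these bulk cultures, fewer cells of a type and less RNA per cell cannot be told apart.

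All 5 subunit genes were expressed, in the same order in all 20 libraries once levels were divided by exon length. Chrna1 had the highest level, 133 ± 6.85 CPM per kb (SD, n = 20). It was followed by Chrnb1 with 46.3 ± 3.72, Chrnd with 38.8 ± 4.63, Chrng with 19.9 ± 3.60 and Chrne with 1.81 ± 0.520 CPM per kb (SD, n = 20 each). The step between Chrnb1 and Chrnd was the smallest, a ratio of 1.02 to 1.37 over libraries with a median of 1.24. Chrna1 exceeded Chrnb1 by 2.52 to 3.37 times, Chrnd exceeded Chrng by 1.38 to 2.41 times and Chrng exceeded Chrne by 7.59 to 18.1 times. Of the summed level per kb of the 5 genes, Chrna1 made up 55.5 ± 1.98%, Chrnb1 19.3 ± 0.937%, Chrnd 16.2 ± 1.26%, Chrng 8.28 ± 1.18% and Chrne 0.750 ± 0.189% (SD, n = 20). These levels, ratios and shares depend on the length used. The longest coding transcript of Chrng has 2780 bases against 4163 in its exon union, so a transcript length would raise its level per kb and its share. RNA shares are not the shares of subunits in receptors.

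The precision of these values differed greatly between the genes. Chrna1 had a mean of 12752 counts per library and varied by 5.15% between the 20 libraries (coefficient of variation of CPM). Chrne had a mean of 66.4 counts, from 36 to 94, and varied by 28.7%, where counting alone gives 12.3%. The coefficients were 8.04% for Chrnb1, 11.9% for Chrnd and 18.1% for Chrng, where counting alone gives 1.98%, 1.90% and 2.35%. Counting error covers only the sampling of reads, which are not independent molecules.

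Of 11 neuronal nicotinic receptor genes listed, 6 were in the table and only Chrnb2 passed the filter, with 7 to 34 counts and 1.09 ± 0.336 CPM (SD, n = 20), or 0.13 CPM per kb. Chrna2, Chrna6, Chrna9, Chrna10 and Chrnb4 had a median of 0 counts and at most 4 in any library. The other 5 were not analysed here.

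The control replicates 1 to 4 had Chrna1 levels of 601, 601, 589 and 564 CPM. With bivalent 13-3B5 the levels were 602, 605, 632 and 621 CPM, above every control library, and with agrin they were 543, 572, 600 and 544 CPM, below every library of the bivalent group. Agrin with 13-3B5xb12 gave 529, 562, 570 and 545 CPM, and agrin with 11-3F6xb12 gave 616, 621, 567 and 568 CPM. The bivalent group thus did not overlap with the control or the agrin group, by gaps of 1 to 2 CPM, nor with agrin and 13-3B5xb12, while the other 7 of the 10 pairs of treatments overlapped for Chrna1. Of 14605 genes tested, 1.88% did not overlap between bivalent and control, 2.38% between bivalent and agrin and 3.25% between bivalent and agrin with 13-3B5xb12. The fitted difference was 0.06 on the log2 scale (SE 0.06) between bivalent and control and 0.12 (SE 0.06) between bivalent and agrin, each with an adjusted p of 1.00, in comparisons where 0% of 14605 genes tested were called (edgeR's quasi-likelihood test with Benjamini-Hochberg adjustment, as for all adjusted p-values of single genes below).

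Chrnb1, which encodes the beta subunit, was measured at 128, 124, 117 and 116 CPM in control replicates 1 to 4. With agrin the levels were 107, 116, 103 and 107 CPM, and with bivalent 13-3B5 they were 120, 136, 116 and 121 CPM. Agrin with 13-3B5xb12 gave 112, 112, 111 and 112 CPM, and agrin with 11-3F6xb12 gave 141, 118, 111 and 119 CPM. The agrin libraries were the lowest of these groups in the mean, but with replicate 2 at 116 CPM their range overlapped with each of the other 4 groups. Agrin with 13-3B5xb12 lay below every control library (as 1.64% of all genes tested did not overlap there) and every bivalent library (3.25%), pairs that were not tested. Chrnb1 differed by −0.16 (SE 0.07) between agrin and control, by 0.19 (SE 0.07) between bivalent and agrin and by 0.18 (SE 0.07) between agrin with 11-3F6xb12 and agrin (log2 scale). The unadjusted p-values were 0.0347, 0.0170 and 0.0224 and the adjusted p-values were all 1.00 (edgeR's quasi-likelihood test), so none passed the threshold of 0.05. These comparisons share the agrin libraries.

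The 5 treatments left no subunit gene past the threshold. In each of the 6 comparisons between pairs of treatments, and in the test of any difference over the 5 treatments, 0 of the 5 genes were called at an adjusted p under 0.05, against a background of 0% of 14605 genes tested in each. The genes with an unadjusted p under 0.05 numbered 1 of the 5, Chrnb1, in each of the 3 comparisons named above and 0 in the others. Of all genes tested, from 349 (2.39%) to 617 (4.22%) lay under it in the 6 comparisons and 329 (2.25%) over the 5 treatments. DESeq2 also called 0 of the 5 in each, beside 2 of 14605 genes tested between the 2 monovalent groups and 0 in the other tests. Over the 5 treatments, the unadjusted p was 0.0524 for Chrnb1 and 0.131 for Chrna1, and the other genes had 0.719 or more. Between agrin and control the median log2 difference of the 5 genes was −0.13, beside 0.00 for all genes tested, and all 5 estimates were below 0. Without the 3 libraries named above, 3 of these estimates turned, to 0.04 for Chrnd, 0.14 for Chrng and 0.04 for Chrne. All 5 were above 0 for agrin with 11-3F6xb12 against agrin (median 0.11), a comparison that shares the agrin libraries with the former.

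The intervals, from the model with treatment alone, show what these libraries could resolve with the differences between replicates left in the spread. Bivalent against control, 2 treatments without agrin, gave 95% intervals of −0.07 to 0.19 for Chrna1, −0.13 to 0.17 for Chrnb1 and −0.20 to 0.27 for Chrnd (log2 fold change). They were −0.53 to 0.20 for Chrng and −0.66 to 0.60 for Chrne, whose counts were the lowest. The 2 monovalent antibodies, compared at the same doses of antibody and agrin, gave log2 differences (11-3F6xb12 relative to 13-3B5xb12) of 0.10 (interval −0.02 to 0.23) for Chrna1 and 0.13 (−0.02 to 0.28) for Chrnb1. For Chrnd the difference was 0.12 (−0.11 to 0.36), for Chrng 0.07 (−0.30 to 0.43) and for Chrne 0.26 (−0.37 to 0.90), and each adjusted p was 0.992 (edgeR's quasi-likelihood test). A missed threshold does not show that the treatments acted alike.

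**Figure D1:**
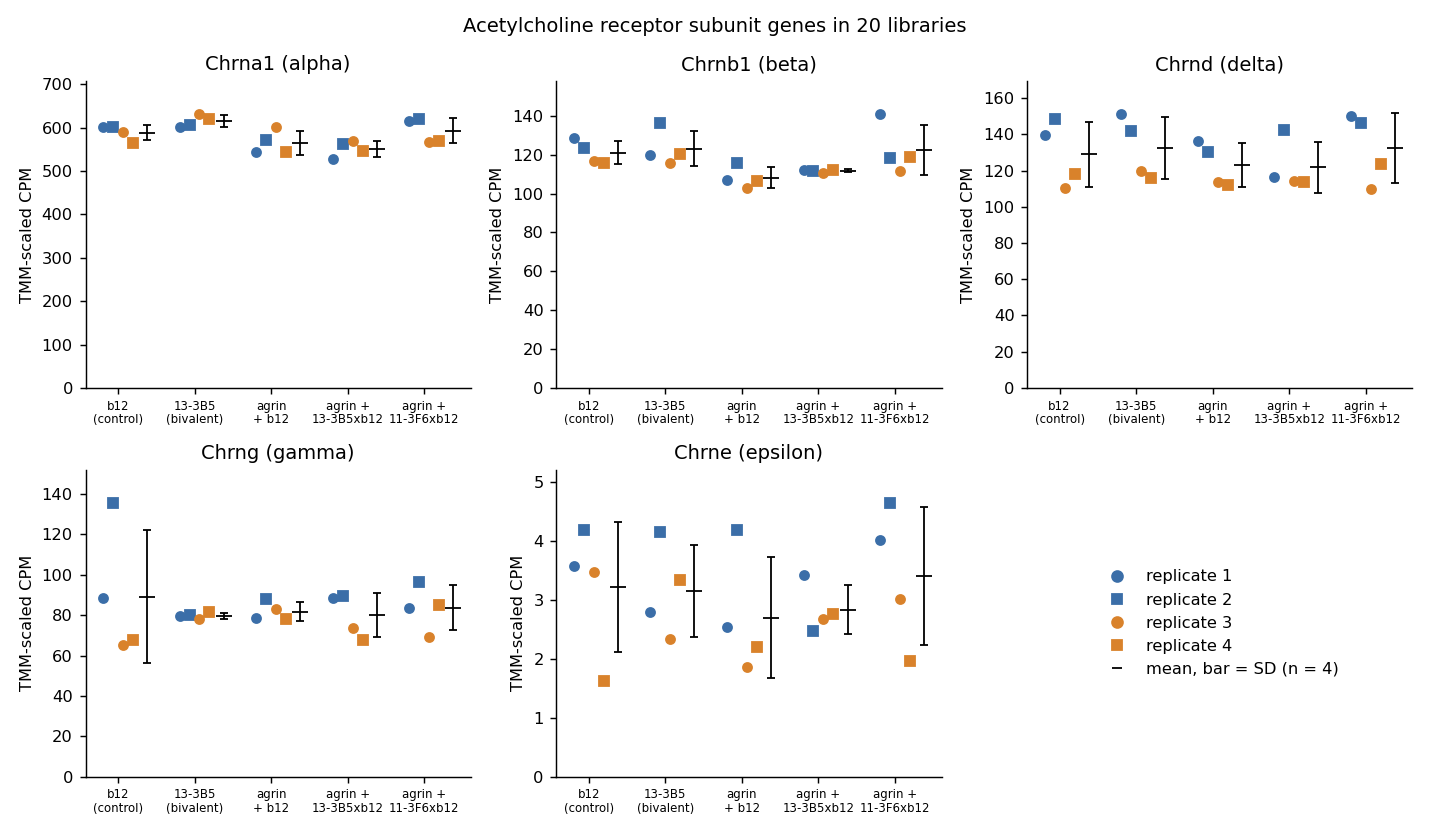
Level of each subunit gene (TMM-scaled CPM, linear axis from 0) in the 20 libraries by treatment; blue points are replicates 1 and 2, orange points replicates 3 and 4, and black marks give the mean with its SD (n = 4). Among the 10 pairs of treatments, Chrna1 or Chrnb1 do not overlap in 4 and the other genes overlap in all, Chrnd is lower in replicates 3 and 4 of every treatment, and control replicate 2 has the highest Chrng value, 136 CPM.

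**Figure D2:**
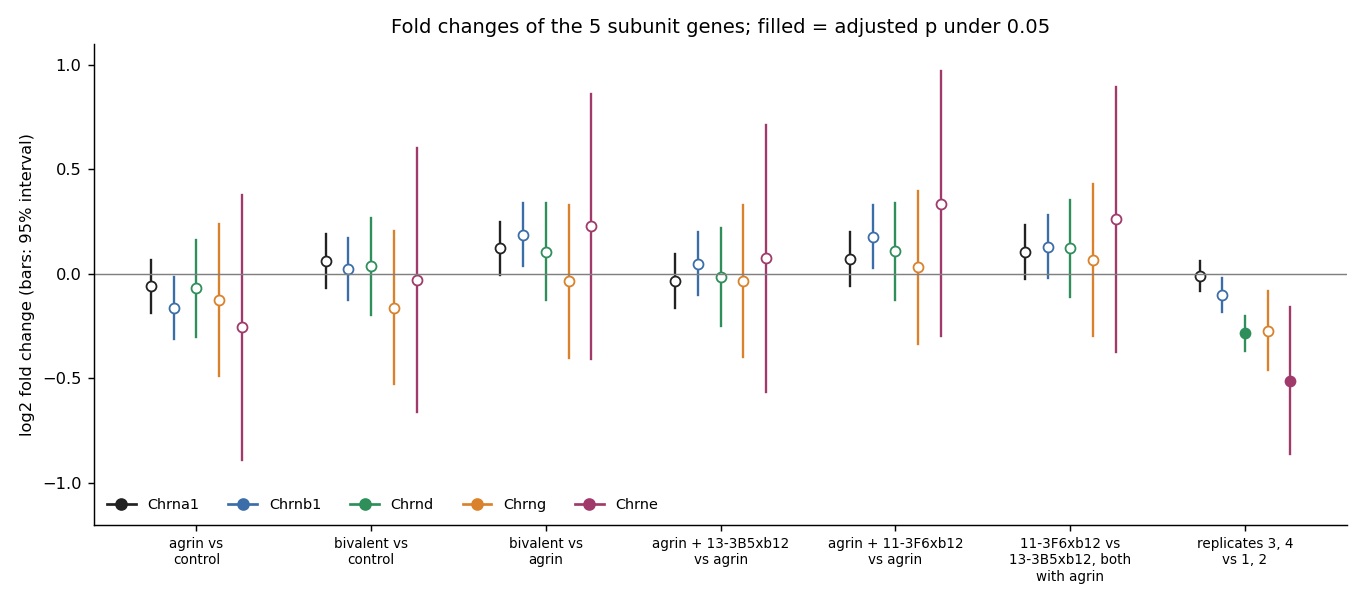
Log2 fold change of the 5 subunit genes in the 6 treatment comparisons and between replicates 3, 4 and 1, 2 (y axis), with 95% intervals; filled points have an adjusted p under 0.05. Only Chrnd and Chrne in the last comparison are filled, and the intervals of Chrne are the widest.

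Gamma RNA exceeded epsilon RNA in every library and treatment. Chrng gave 88.4, 136, 65.0 and 67.6 CPM in control replicates 1 to 4, and 79.5, 80.0, 78.0 and 81.5 CPM with bivalent 13-3B5. With agrin it gave 78.3, 87.8, 82.8 and 78.1 CPM, when 13-3B5xb12 was added to agrin 88.6, 89.4, 73.8 and 67.6 CPM, and when 11-3F6xb12 was added 83.7, 96.4, 69.2 and 85.0 CPM. The control libraries thus held both the highest and the lowest Chrng values of the study, and the bivalent libraries lay within a narrow range. Chrne gave 3.58, 4.18, 3.48 and 1.63 CPM in the control and 2.79, 4.15, 2.33 and 3.34 CPM with bivalent 13-3B5. With agrin it gave 2.54, 4.18, 1.86 and 2.21 CPM, when 13-3B5xb12 was added to agrin 3.43, 2.47, 2.67 and 2.75 CPM, and when 11-3F6xb12 was added 4.01, 4.65, 3.00 and 1.97 CPM. All treatments overlapped for both genes.

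Per kb of exon, gamma was 11.7 ± 3.27 times epsilon (SD, n = 20), and epsilon made up 8.34 ± 2.00% of their sum. With the length of the longest coding transcript of each gene, a choice made after seeing the data, the ratio was 16.8 ± 4.69, because the union of Chrng exons is longer than any of its coding transcripts. The balance was compared as the log2 ratio of Chrng to Chrne counts, in which length and library scaling cancel. Its mean was 4.81 ± 0.50 in the control, 4.70 ± 0.34 with bivalent 13-3B5, 4.99 ± 0.46 with agrin, 4.82 ± 0.25 when 13-3B5xb12 was added to agrin and 4.68 ± 0.51 when 11-3F6xb12 was added (SD, n = 4 each). Counting error alone gives a library's ratio an SD of 0.185 on this scale, against an SD of 0.392 over the 20 libraries.

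No difference in the balance between treatments passed the threshold of 0.05. The largest differences were −0.31 for agrin with 11-3F6xb12 against agrin and −0.30 for bivalent against agrin, each with an exact permutation p of 0.343 (two-sided). Agrin against control differed by 0.18 (exact p = 0.629), bivalent against control by −0.12 (exact p = 0.743), agrin with 13-3B5xb12 against agrin by −0.17 (exact p = 0.543) and the 2 monovalent groups by −0.14 (exact p = 0.6). After Benjamini-Hochberg adjustment over the 6 comparisons every exact p was 0.743. Before adjustment, 4 libraries against 4 cannot go below 0.0286, so 1 separated comparison alone could not pass 0.05 after it. Groups overlapped in all 6. The 95% intervals, which hold the shifts that the exact test did not refuse, were wide. They ran from −0.98 to 1.25 for agrin against control, −1.1 to 0.84 for bivalent against control and −1.2 to 0.67 for bivalent against agrin. Against agrin they ran from −0.86 to 0.78 with added 13-3B5xb12 and −1.1 to 1.04 with added 11-3F6xb12, and between these 2 groups from −0.80 to 0.81. Shifts inside these intervals are not excluded. Within replicates 1 and 2 and within replicates 3 and 4 the differences had opposite signs in 4 of the comparisons, such as −0.16 and 0.51 for agrin against control. They were −0.12 and −0.48 for bivalent against agrin, and −0.29 and −0.33 for agrin with 11-3F6xb12 against agrin. In same-numbered pairs of libraries the ratio was lower with bivalent 13-3B5 than with agrin in 4 of 4, for which the exact sign-flip p is 0.125, the smallest that 4 pairs can give.

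**Figure D3:**
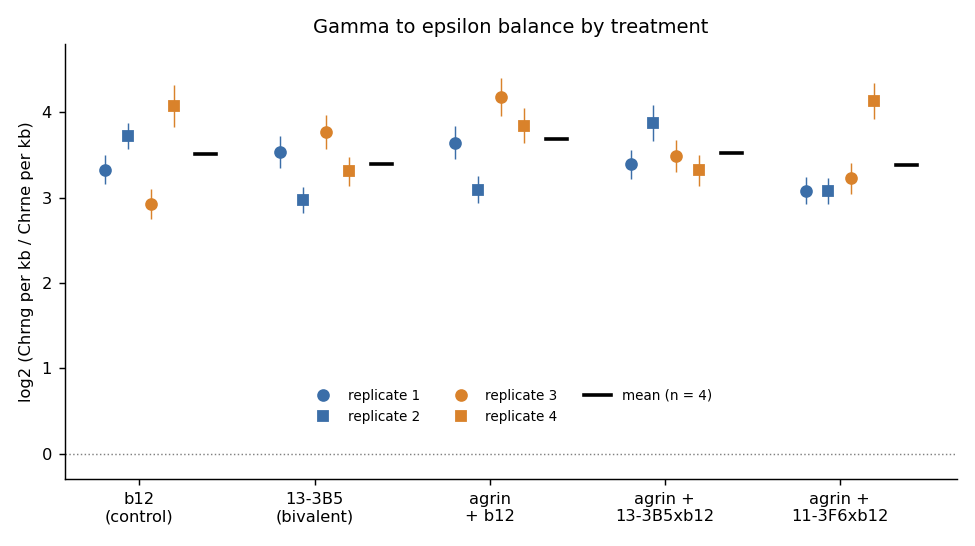
Log2 ratio of Chrng to Chrne per kb in each library (y axis, 0 marks equal levels), by treatment; vertical bars give 1 SD of counting error and black lines the treatment mean (n = 4). All 20 libraries lie between 2.92 and 4.18, and the treatments overlap.

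Replicates 3 and 4 had less delta subunit RNA than replicates 1 and 2 under every setting tried. Epsilon RNA was also called lower, but lost its call without any 1 replicate number, gamma RNA was called only in some alternatives, and the alpha and beta genes did not pass the test. In this comparison, adjusted for treatment, 2 of the 5 genes were called, both lower in replicates 3 and 4, against a background of 13.1% of 14605 genes called in either direction and 7.13% called lower (1042 genes). The median log2 difference of the 5 genes was −0.27, beside 0.01 for all genes tested. Chrnd fell by 0.28 on the log2 scale (SE 0.04, adjusted p = 3.45e-06, edgeR's quasi-likelihood test) and Chrne fell by 0.51 (SE 0.17, adjusted p = 0.0465). The split into these replicates was noticed in earlier results of the same data, and these tests describe these libraries.

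Chrnd in control replicates 1 to 4 was at 139, 148, 110 and 118 CPM. With bivalent 13-3B5 it was at 151, 142, 120 and 116 CPM, and with agrin at 137, 130, 114 and 112 CPM. Agrin with 13-3B5xb12 gave 116, 142, 114 and 114 CPM, and agrin with 11-3F6xb12 gave 150, 147, 110 and 123 CPM. In each of the 5 treatments both libraries of replicates 3 and 4 lay below both of replicates 1 and 2. Over all treatments, replicates 1 and 2 had 140 ± 10.7 CPM and replicates 3 and 4 had 115 ± 4.36 CPM (SD, n = 10 each), and 9 of the 10 former libraries lay above all of the latter. The call held in each fit that left out 1 replicate number, with adjusted p-values from 3.90e-05 to 0.00178 (edgeR's quasi-likelihood test). The means by number were 139, 142, 114 and 117 CPM for replicates 1 to 4. If libraries of one number share a culture, the comparison is of 2 numbers against 2, for which an exact permutation test cannot go below 0.333.

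The epsilon gene had 3.60 ± 0.768 CPM in replicates 1 and 2 and 2.52 ± 0.631 CPM in replicates 3 and 4 (SD, n = 10 each), and the ranges overlapped. Its mean was lower in replicates 3 and 4 in all 5 treatments, with differences from −0.10 with agrin and 13-3B5xb12 to −0.83 with agrin and 11-3F6xb12 (mean log2 CPM). The call of Chrne was lost in every fit without 1 replicate number, with adjusted p = 0.0603, 0.356, 0.116 and 0.230 without replicates 1, 2, 3 and 4 in turn (edgeR's quasi-likelihood test). It was also lost without the 3 libraries named above (adjusted p = 0.122) and with no filter on low counts (0.0568), though not in DESeq2's Wald test (0.0256).

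The gamma gene had 90.8 ± 16.7 CPM in replicates 1 and 2 and 74.9 ± 7.19 CPM in replicates 3 and 4 (SD, n = 10 each), a log2 difference of −0.27 (SE 0.09) that just missed the threshold (adjusted p = 0.0543, edgeR's quasi-likelihood test). The estimate passed in DESeq2's Wald test (adjusted p = 0.00723). It also passed in edgeR with no filter (1.20e-05), at a mean count of at least 10 (0.0484) and without replicate 1 (0.0425). Without the 3 libraries it passed at −0.20 (0.00275). Leaving out 1 replicate number moved the estimate between −0.38 and −0.17. By treatment, the difference in mean log2 CPM was largest among control libraries (−0.72). It was −0.001 under bivalent 13-3B5 and −0.04 under agrin alone. Adding a monovalent antibody to agrin gave −0.33 for 13-3B5xb12 and −0.23 for 11-3F6xb12. For Chrnb1 the difference was −0.10 (SE 0.04, adjusted p = 0.0992), from 121 ± 10.9 to 113 ± 5.45 CPM. For Chrna1 it was −0.01 (95% interval −0.08 to 0.06, adjusted p = 0.892), from 585 ± 31.8 to 580 ± 29.7 CPM (SD, n = 10 each). The share of Chrna1 in the summed level per kb of the 5 genes was 51.5% to 54.7% in replicates 1 and 2 and 55.0% to 58.7% in replicates 3 and 4, without overlap, a description chosen after its values were seen. The log2 ratio of gamma to epsilon differed by 0.25 between replicates 3, 4 and 1, 2 (exact permutation within treatments, p = 0.184), and within treatments from 0.64 in the agrin group to −0.23 with agrin and 13-3B5xb12.

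**Figure D4:**
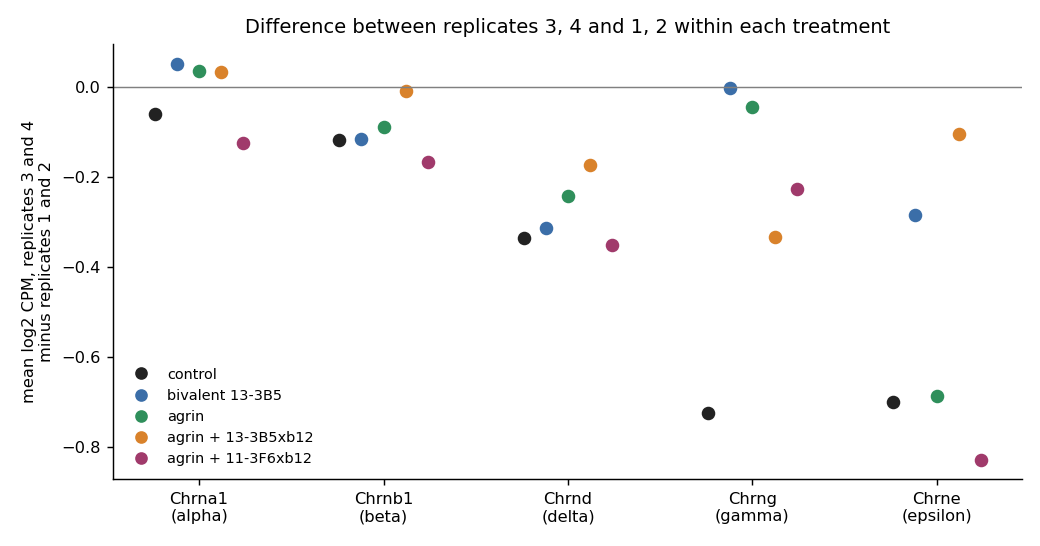
Difference in mean log2 CPM between replicates 3, 4 and replicates 1, 2 (y axis) for each subunit gene, with 1 point per treatment (2 libraries against 2). Chrnd lies between −0.35 and −0.17 in all 5 treatments, Chrna1 lies on both sides of 0, and the widest spread is that of Chrng and Chrne.

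Whether a treatment difference depended on the replicates was tested by their interaction, in which 0 of the 5 genes were called and 1 of 14605 genes tested was (0.00685%), the fast myosin gene Myh4, named after its value was seen. The smallest p of the 5 was that of Chrng, 0.00378 unadjusted and 0.966 adjusted (edgeR's quasi-likelihood test), and it was the only 1 of the 5 under 0.05, where 709 of all genes lay. Without a filter on low counts Chrng was 1 of 61 genes called of 26190 tested, and without replicate 1 it was 1 of 46 called of 14720. The Chrng difference of agrin against control was −0.44 (SE 0.15) within replicates 1 and 2 and 0.28 (SE 0.10) within replicates 3 and 4. Bivalent against control gave −0.50 (SE 0.15) and 0.27 (SE 0.10). Control replicate 2, with 2922 Chrng counts against 1272 to 2033 in the other 19 libraries, enters both values within replicates 1 and 2. Both values within replicates 3 and 4 do not involve that library. They rest on control replicates 3 and 4, which had the lowest Chrng levels of the study, 65.0 and 67.6 CPM. Without the 3 libraries, Chrng differed by 0.14 between agrin and control and by 0.11 between bivalent and control over all replicates.

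Differences of the receptor's partner genes between treatments did not pass the threshold. None of the 20 tested genes for receptor clustering, 10 for assembly and traffic and 27 for regulation of the subunit genes was called in any of the 6 comparisons or over the 5 treatments. At an unadjusted p under 0.05 there were from 0 to 2 genes per list in each comparison. The smallest unadjusted p over treatments in each list were 0.148 for Sntb1 (a syntrophin), 0.154 for Unc50 (an assembly factor of nicotinic receptors) and 0.0342 for Gabpa (the ETS-family factor that binds the N-box), each with an adjusted p of 1.00 (edgeR's quasi-likelihood test). For Gabpa the unadjusted p was 0.00914 between bivalent and control, a log2 difference of 0.19 (SE 0.07). Among neuronal subunits Chrnb2 had 0.941. The smallest were 0.195 for Des in the myotube marker list, 0.0244 for Vcam1 in the myoblast and cycling list and 0.0138 for Lum in the fibroblast list. The lists were drawn up with earlier results of these data known.

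Between the replicates, genes of the clustering list were called in both directions. Beside the 13.1% of all genes called (7.13% lower), 5 of its 20 tested genes were called, of which 3 were lower in replicates 3 and 4, namely Rapsn (rapsyn, −0.16, SE 0.04), Fyn (a Src-family kinase, −0.20, SE 0.05) and Dtna (alpha-dystrobrevin, −0.13, SE 0.04), with adjusted p-values from 0.00546 to 0.0385 (edgeR's quasi-likelihood test). Another 2 were higher, Lrp4 (the agrin receptor, 0.13, adjusted p = 0.0413) and Sntb2 (a syntrophin, 0.15, adjusted p = 0.0488). The list's median was 0.06, beside 0.01 for all genes. In the assembly list 2 of 10 were lower, Trim63 (a muscle ubiquitin ligase, −0.76) and Prkar1a (a regulatory subunit of protein kinase A, −0.14), and none was higher.

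Of 27 tested regulators, 5 were lower and none was higher, beside 7.13% of all genes lower, with a median of −0.05. They were the myogenic transcription factor Mef2c (−0.40, SE 0.05), the homeobox factor Six4 (−0.20, SE 0.04), Id3, an inhibitor of MyoD-family factors (−0.48, SE 0.11), the neuregulin receptor Erbb2 (−0.29) and the deacetylase Hdac9 (−0.33), with adjusted p-values from 1.06e-07 to 0.0378 (edgeR's quasi-likelihood test). Myog (myogenin) had a difference of 0.08 (adjusted p = 0.221) and Myod1 one of −0.01 (adjusted p = 0.939). Lrp4, Sntb2, Erbb2, Hdac9, Mb, Mymx, Lum, Myf5, Dcn, Myog and Myod1 were named after their values were seen.

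Some genes of each marker list were also called between the replicates. They were 5 of 15 for myotubes, 2 of 9 for myoblasts and cycling cells and 4 of 6 for fibroblasts. Of all genes tested, 13.1% were called (7.13% lower). The 15 myotube markers summed to 16277 to 18447 CPM in replicates 1 and 2 and to 13897 to 16982 CPM in replicates 3 and 4. Of them 4 were lower, the contractile and energy genes Ckm (−0.72), Tnnt3 (−0.43), Tnnc2 (−0.40) and Mb (−0.77), and Mymx, which encodes a fusion protein, was higher (0.38). Of 9 myoblast and cycling markers, Ccnb1 (−0.65) and Vcam1 (−0.15) were lower. Myf5 went the other way without passing (0.30, adjusted p = 0.0595), and the other estimates were below 0. The sums of this list were 395 to 474 CPM in replicates 1 and 2 and 310 to 446 CPM in replicates 3 and 4. Of 6 tested fibroblast markers, Col3a1 (−0.16), Postn (−0.18), Col1a1 (−0.75) and Lum (−0.37) were lower, and Dcn had an estimate above 0 without passing (0.08, adjusted p = 0.326). The sums of the fibroblast list were 4890 to 5437 CPM and 4232 to 5098 CPM. Each marker named here other than Myf5 and Dcn passed with an adjusted p of 0.0234 or less (edgeR's quasi-likelihood test, as for these 2 genes). The mitochondrial share was 30.2% to 39.1% of counts in replicates 1 and 2 and 27.9% to 32.5% in replicates 3 and 4. The part of these differences in the levels of Chrnd and Chrne was not tested.

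Over the 20 libraries, the 5 subunit genes varied together only in part. Pearson's r of log2 CPM was 0.61 between Chrnd and Chrng and between Chrnb1 and Chrnd, 0.56 between Chrna1 and Chrnb1 and 0.43 between Chrng and Chrne. After treatment and the replicate split were removed, the same values were 0.26, 0.12, 0.18 and 0.09, and Chrnd and Chrne gave −0.40 in place of 0.48. All points share libraries and their depth, and the values are descriptions. None of the 5 was among the 50 most similar genes of another by this measure.

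The genes most like each subunit gene were found among 11149 genes with a mean log2 CPM above 1. For Chrnd they were Klhl41 (a sarcomere-associated kelch protein, r = 0.93), Bin1 (a membrane-bending protein, r = 0.91) and Gm48395 (r = 0.91). For Chrng they were Pde4dip (r = 0.90), Synpo2 (r = 0.89) and Sgcb (a sarcoglycan, r = 0.88), which without control replicate 2 gave 0.84, 0.80 and 0.80. For Chrne they were Cd24a (r = 0.83), Adamts16 (r = 0.82) and Stard10 (r = 0.78), for Chrnb1 Dusp22 (r = 0.80), Gabarapl2 (r = 0.79) and Prkar2a (r = 0.76), and for Chrna1 Cbll1, Tpmt and Mmgt1 (r = 0.73 each). All r are Pearson's over 20 libraries, with treatment and the replicate split left in. With Myog, r was 0.47 for Chrna1, 0.20 for Chrnb1, −0.21 for Chrnd, −0.54 for Chrng and −0.17 for Chrne.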

How the data were processed

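Total RNA of 20 libraries was prepared with a stranded kit after ribosomal depletion, per the labels' protocols. The deposited table holds counts per gene, made by the authors. The submitters' processing notes name Trim Galore 0.6.6, cutadapt 2.10, STAR 2.7.6a, HTSeq 0.12.4, DESeq2 1.32.0 and GRCm38. The use of strand and the annotation are not given in the sources used here.

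The fits used edgeR 4.0.16 (R 4.3.3) on 14605 genes that passed filterByExpr (minimum count 10, minimum total 15). Libraries were scaled with TMM factors and tested with robust quasi-likelihood F-tests in 1 model with treatment alone, with a term for replicates 3 and 4 against 1 and 2, or with their interaction, adjusted over all genes tested with a threshold of 0.05. Log2 CPM for correlations used a prior count of 2. Log2 ratios of Chrng to Chrne were tested by exact permutation, two-sided, in SciPy 1.17.1. The fit was run on simulated counts drawn independently for each library, without a difference between replicates. That run therefore does not cover the replicate split of these libraries. The minimum chi-square per gene between replicates was 5.17, so no libraries were counted as duplicates.

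Replicate numbers come from the sample titles. Deviations of same-numbered libraries had r over 0.1 in every pair for bivalent against control, bivalent against agrin and both monovalent groups against agrin. Alternatives were DESeq2 1.42.0, its size factors, other filters, a replicate block, fits of 2 groups, removal of genes over 1% of a library and removal of libraries.

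The members and gene lists were chosen with earlier results of these data known. Named were the 5 members, up to 3 genes past the threshold per list, otherwise the 1 with the smallest p over treatments, and the 3 genes most correlated with each member.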

Additional observations from a re-analysis of the deposited data

Results flagged for a closer look

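Among 30 groups of 4 libraries (5 genes and the gamma to epsilon ratio, in 5 treatments), 2 held a library far from the others by Dixon's test, and chance flags about 5% of groups. With agrin and 13-3B5xb12, Chrnd was at 142.5 CPM in replicate 2 against 113.83 to 116.29 CPM in the other 3 libraries, a gap of 0.914 of the group's range. The test takes no account of the difference between replicates 1, 2 and 3, 4. Over all treatments Chrnd ranged from 116 to 151 CPM in replicates 1 and 2. The value of 142.5 CPM lies inside that range, and replicate 1 of this group was its lowest library. With agrin and 11-3F6xb12, the log2 ratio of Chrng to Chrne was 5.43 in replicate 4 against 4.37 to 4.53 in the others, a gap of 0.857. That library had 2033 Chrng and 47 Chrne counts. The Chrng level in control replicate 2 did not pass this test.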

How the results depend on the processing

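In all 107 alternative fits of the treatment comparisons, 0 of the 5 genes were called, and the smallest adjusted p of a member was 0.794. Of all genes tested, these fits called from 0 to 50, the most over the 5 treatments with no filter on low counts (of 26190). With the replicate number as a block, 0 of the 5 were called in each comparison and over all treatments. Of 14605 genes tested, the block called 5 between the monovalent groups and 2 for agrin with 11-3F6xb12 against agrin. It called 2 over all treatments and 0 in the other comparisons. The r of deviations was under 0.1 in replicate 2 of agrin against control (0.00824, mean of its pairs 0.166). Between the monovalent groups it was under 0.1 in replicates 1 and 4 (0.0852 and 0.0528, mean 0.14). For agrin with 13-3B5xb12 against agrin, where every pair was over 0.1, the mean was 0.157. The paired balance differences were 0.18, −0.12, −0.30, −0.17, −0.31 and −0.14, the same as unpaired, and 0.25 for replicates 3 and 4 against 1 and 2. The block turned Chrne between bivalent and control to 0.0057. Without the 3 libraries, the estimates that turned were Chrnd (0.043), Chrng (0.14) and Chrne (0.043) for agrin against control, Chrng (0.11) and Chrne (0.13) for bivalent against control, and Chrna1 (0.014), Chrne (−0.17) and the balance (0.033) for agrin with 13-3B5xb12 against agrin. With gamma set against alpha, beta and delta, the balance difference between the replicates was −0.13. The causes were not tested.

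Leaving out 1 library at a time, the balance ranged from −0.017 to 0.38 for agrin against control and from −0.31 to 0.070 for bivalent against control. Single-gene estimates ranged across 0 as well. For agrin against control, Chrnd ranged from −0.14 to 0.0053 and Chrng from −0.25 to 0.15. For bivalent against control, Chrnb1 ranged from −0.029 to 0.052, Chrnd from −0.035 to 0.11, Chrng from −0.29 to 0.11 and Chrne from −0.25 to 0.12. For bivalent against agrin, Chrng ranged from −0.057 to 0.00025. For agrin with 13-3B5xb12 against agrin, Chrnd ranged from −0.099 to 0.039, Chrng from −0.093 to 0.037 and Chrne from −0.069 to 0.36. For agrin with 11-3F6xb12 against agrin, Chrng ranged from −0.043 to 0.11. For the 2 monovalent groups, Chrng ranged from −0.0085 to 0.15.
Leaving out 1 replicate number, between 1 and 2 members were called between the replicates, always Chrnd, beside 1306, 1284, 1045 and 1171 of all genes without replicates 1 to 4, and Chrna1 ranged from −0.041 to 0.016. The interaction called from 0 to 1 member, beside 46, 236, 0 and 0 genes in these fits, and 1 with no filter, beside 61. Chrne, with 36 to 94 counts, limits what the balance can resolve.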
